A study of Mus musculus with 9 samples.

Results

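Colony-stimulating factors and related hematopoietic growth cytokines are the signals that stromal cells such as fibroblasts give to cells of the blood lineages. The set described here holds 9 genes of the 49548 in the deposited tables: Csf1, Il34, Csf2, Csf3, Kitl, Flt3l, Il7, Il15 and Tslp. They were chosen by gene name, and 10 rows carry these names, because Flt3l has 2 rows. RNA came from cultured synovial fibroblasts (SFs), the resident mesenchymal cells of the joint lining, taken from the ankles of mice of a CBA C57BL/6J background at 8 weeks of age. There were 3 libraries from WT mice and 3 from hTNFtg mice, which carry a human TNF transgene and develop arthritis. A further 3 libraries came from hTNFtg SFs given infliximab (Remicade), an antibody that neutralizes human TNF, at 1 µg/mL for 48 hours. By the labels the WT SFs and the other hTNFtg SFs were not treated, whereas by the methods they received vehicle, and all cultures had been depleted of CD45+ cells at passage 1. The methods call the 3 samples of a group biological replicates without saying which animals they came from.

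In this family CSF1 and IL34 are the ligands of CSF1R, the receptor on which macrophages and osteoclasts depend. CSF2 (GM-CSF) and CSF3 (G-CSF) act on granulocytes and macrophages, KITL (stem cell factor) supports progenitors and mast cells through KIT, and FLT3L supports dendritic cell precursors through FLT3. IL7 and IL15 maintain lymphocytes and natural killer cells, and TSLP acts on dendritic cells and lymphocytes through a receptor shared in part with IL7. In arthritis, CSF1 and IL34 made in the synovium are known for their support of osteoclast formation.

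Values are normalized counts, that is 3′ mRNA reads per gene that the authors scaled by 1 factor for each library and rounded. A read was worth 0.534 to 1.10 normalized counts in 8 libraries and 6.23 in hTNFtg replicate 1, which held about 613344 reads on genes against 3829135 to 9015457 in the others. A count of 3 reads, taken as the floor, therefore stood at 18.7 normalized counts in hTNFtg replicate 1 and at 1.60 to 3.31 elsewhere. Floors and the exact Poisson and binomial intervals below cover counting error only. Fibroblast markers, led by Col1a1 and Col1a2, were high in all groups, with sums over 9 genes of 36672 to 44085 in WT, 32650 to 39636 in hTNFtg and 31178 to 38092 in infliximab-treated SFs. Of the 9, 3 were higher in every hTNFtg than in every WT library (Pdpn, Prg4 and Thy1), beside 5.63% of all genes. Another 2 were lower (Col1a1 and Lum), beside 5.8% of all genes. Markers of macrophages differed by genotype. Their sum over 11 genes was 196 to 676 in WT, 3124 to 6438 in hTNFtg and 2035 to 4141 with infliximab, and 9 of the 11 were higher in every hTNFtg library than in every WT library, beside 5.63% of all genes. Lyz2 was the largest part of the sum in every hTNFtg library, treated or not. Ptprc, which encodes CD45, stood at 0 to 3 normalized counts in WT and at 9 to 31 in hTNFtg SFs. In cultures of this kind, more cells of a type and more RNA per cell cannot be told apart. One infliximab library, replicate 3, stood apart in hepatocyte genes, which summed to 882 there and to 19 to 67 in the other 8 libraries.

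Comparisons used limma on log2(normalized count + 1), with log2 fold changes on that scale. Genes were called raised or lowered by the study's rule, for which the log2 fold change must be 1 or more in size and the unadjusted P under 0.05. Adjusted p-values are those of Benjamini and Hochberg over all genes tested. Csf2 was at 0 in all 9 libraries, so 9 of the 10 rows could be tested. In hTNFtg versus WT SFs 1 of these 9 rows was lowered, beside 3.04% of all 28522 genes tested, and 0 were raised, beside 3.35%. At an unadjusted P under 0.05 stood 2 of the 9, beside 7.72% of all genes. At an adjusted p under 0.05 there were 0 of 9 by limma, beside 0.48% of all genes, and 0 by edgeR on approximate reads, beside 3.24%. In 3 of the 9 rows, Csf1, Il15 and Tslp, every hTNFtg library was above every WT library, beside 5.63% of all genes. For Il15 and Tslp this rests on 1 and 2 reads in hTNFtg replicate 1, under the floor of 3, since a single read there already stands above the highest WT value. The median log2 fold change was -0.04 over the 9 rows, -0.00094 without the Flt3l row that overlaps Rpl13a, and 0.00 over all genes tested.

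**Figure D1:**
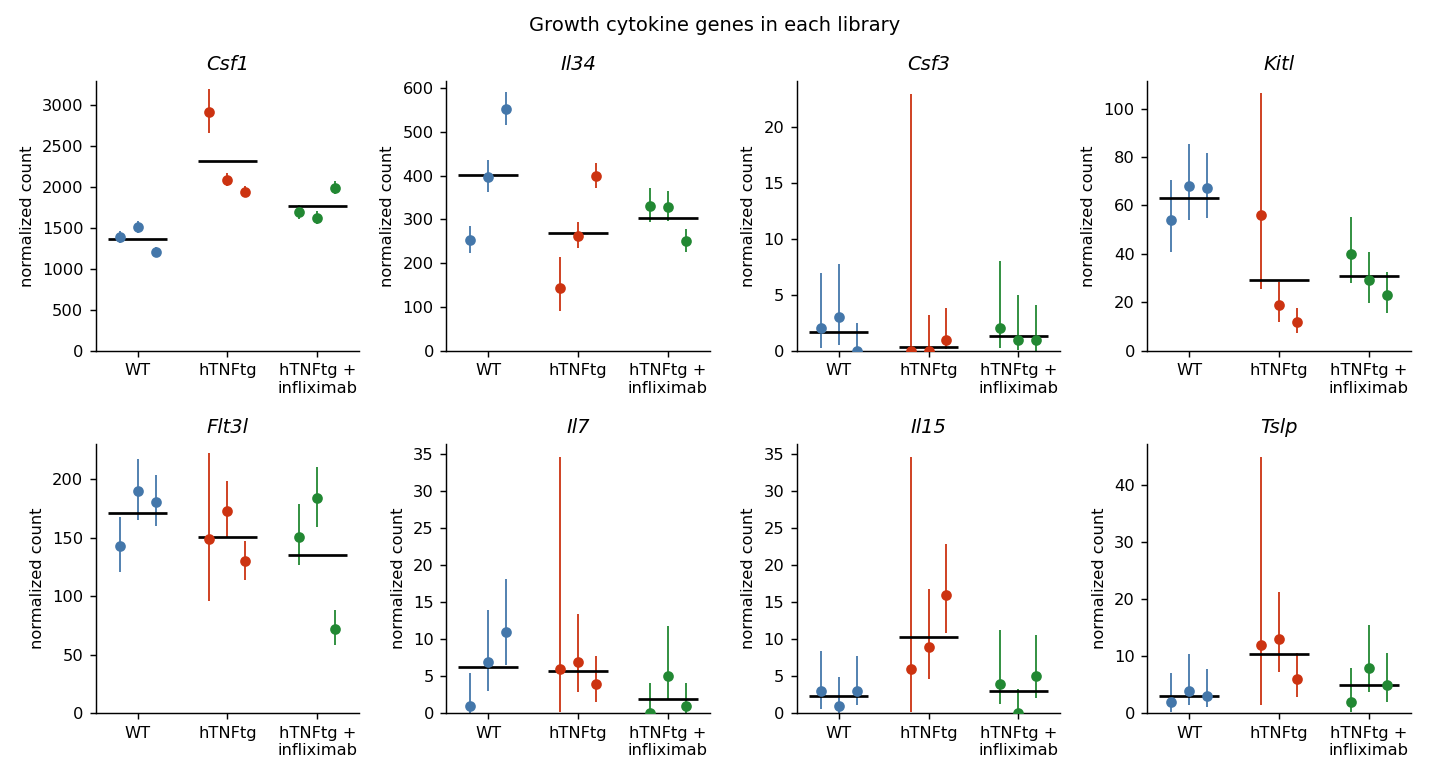
Normalized counts of 8 cytokine genes in each library (dots), with the group mean (black line) and the 95% exact Poisson interval of the reads (vertical line); each panel has its own linear axis from 0, and Csf2, at 0 in all 9 libraries, is not drawn. The Csf1 dots of hTNFtg SFs lie between 1942 and 2915, above those of WT SFs at 1205 to 1512, and the wide intervals of hTNFtg replicate 1 reflect its low depth.

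Among the CSF1R ligands, Csf1 (chromosome 3 of mm10, 107741048 to 107760469, minus strand) had the highest counts of the set, leaving aside the Flt3l row that overlaps Rpl13a, described below. Its normalized count was 1385, 1512 and 1205 in WT replicates 1, 2 and 3, 2915, 2088 and 1942 in hTNFtg SFs, then 1697, 1626 and 1990 after infliximab. All 3 hTNFtg values and all 3 infliximab values were above the highest WT value, and the infliximab values overlapped those of untreated hTNFtg SFs. The means were 1367 ± 154 (SD, n = 3) in WT, 2315 ± 525 (SD, n = 3) in hTNFtg and 1771 ± 193 (SD, n = 3) in treated SFs. The log2 difference of hTNFtg from WT was 0.74 with a standard error of 0.34 and a 95% interval of 0.0034 to 1.48 (limma, adjusted p = 0.644). The unadjusted P met the rule and the size did not. That P was above 0.05 by edgeR (log2 difference 0.70, adjusted p = 0.645). It was also above 0.05 in 4 of the 6 fits with a library left out (each WT replicate or hTNFtg replicate 2). Without hTNFtg replicate 1, where the count of 2915 rested on 468 reads, the difference was 0.56. The difference of infliximab-treated from untreated hTNFtg SFs was -0.37 (limma, adjusted p = 0.803, 95% interval -1.10 to 0.36), and -0.19 without hTNFtg replicate 1. From WT it was 0.37 (adjusted p = 0.481).

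The promoters of Csf1 and Kitl are shown because these are the 2 members with an unadjusted P under 0.05 in hTNFtg versus WT SFs. Each is the 250 bases before the start site in RefSeq (GRCm38.p6), for Csf1 chr3:107760470-107760719 on the minus strand, 5′ to 3′. Capitals mark matches on either strand to GGG, 5 bases of any kind and CC, a loose form of the site bound by NF-kB proteins, with the strands allowed to overlap.
Csf1: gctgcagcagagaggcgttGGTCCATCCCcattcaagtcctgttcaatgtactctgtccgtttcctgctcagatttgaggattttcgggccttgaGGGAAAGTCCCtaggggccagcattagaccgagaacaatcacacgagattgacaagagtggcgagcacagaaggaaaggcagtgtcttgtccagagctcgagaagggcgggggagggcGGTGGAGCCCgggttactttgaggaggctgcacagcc
In Csf1 the stretch GGAAAGTCCC, from 154 to 145 bases before the start, also matches the narrower form, GGG, 3 bases of any kind and TTCC, on the opposite strand. It lies within the second capital run, where both strands match the loose form in overlapping positions.

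Il34 (chromosome 8, 110741829 to 110805924, minus strand), the other CSF1R ligand, stood at 253, 397 and 552 in WT, 143, 263 and 399 in hTNFtg and 331, 329 and 250 in infliximab-treated SFs. The 3 groups overlapped, and no comparison passed the rule (hTNFtg versus WT, log2 difference -0.63, limma adjusted p = 0.726). The Il34 value of hTNFtg replicate 1 rested on 23 reads, and without that library the difference from WT was -0.23. It was -0.36 without WT replicate 3 and -0.97 without hTNFtg replicate 3. Antisense genes overlap Il34, with at most 9 normalized counts in any library, and the sources used here do not state whether the counting used strand.

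Set side by side within each library, Csf1 made up 84.6%, 79.2% and 68.6% of the reads on both ligands in WT replicates 1, 2 and 3. The share was 95.3%, 88.8% and 83.0% in hTNFtg SFs and 83.7%, 83.2% and 88.8% with infliximab. Exact binomial 95% intervals were narrow, from 66.8% to 70.4% for the lowest library and from 93.1% to 97.0% for the highest, so libraries of 1 group differed by more than counting error. hTNFtg and WT overlapped in this share, because hTNFtg replicate 3 at 83.0% lay under WT replicate 1 at 84.6%. The sum of both ligands did not overlap, at 1638 to 1909 normalized counts in WT and 2341 to 3058 in hTNFtg, and it was 1955 to 2240 with infliximab. This adds nothing to the result for Csf1, which made up most of the sum and did not overlap by itself, while Il34 overlapped.

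Their common receptor, Csf1r, was measured at 101, 125 and 62 normalized counts in WT, 255, 128 and 168 in hTNFtg and 137, 150 and 182 in infliximab-treated SFs. Every hTNFtg value was above every WT value, beside 5.63% of all genes. The gap was small, since hTNFtg replicate 2 (128, on 150 reads) lay close to WT replicate 2 (125, on 141 reads). The 255 of hTNFtg replicate 1 rested on 41 reads. The log2 difference was 0.93 with a standard error of 0.37 (limma adjusted p = 0.531; edgeR adjusted p = 0.403). Its unadjusted P met the rule and its size did not, though both did without WT replicate 2 (1.15) or hTNFtg replicate 2 (1.16). Csf1r is itself one of the 11 macrophage markers, whose sum moved from 196 to 676 in WT to 3124 to 6438 in hTNFtg SFs, and the part of such cells in the Csf1r value was not tested. Of the other IL34 receptors, Sdc1, a cell surface proteoglycan, was at 1332, 583 and 388 in WT, 1046, 906 and 425 in hTNFtg and 1121, 1196 and 1429 in treated SFs. The treated values were above all untreated hTNFtg values and overlapped those of WT, and no comparison passed the rule (infliximab versus WT, log2 difference 0.89, limma adjusted p = 0.391; edgeR adjusted p = 0.0436). That difference ran from 0.49 without WT replicate 3 to 1.38 without WT replicate 1, where it passed the rule. Ptprz1, a receptor phosphatase, was at 0 to 4 in all libraries.

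**Figure D2:**
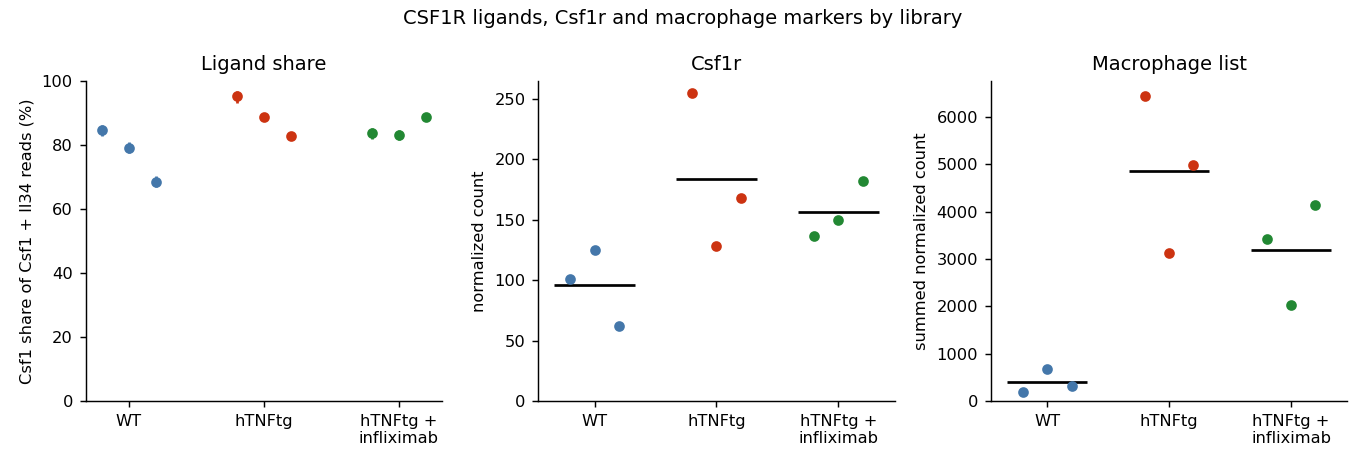
Left, share of Csf1 in the reads on Csf1 and Il34 (percent, dots, with 95% exact binomial intervals). Middle, normalized counts of Csf1r. Right, summed normalized counts of 11 macrophage markers, Csf1r among them, per library with group means (black lines). The share spans 68.6% to 84.6% in WT and 83.0% to 95.3% in hTNFtg SFs, while Csf1r and the marker sum are higher in each hTNFtg library than in each WT library. For Csf1r the closest values are 128 in hTNFtg and 125 in WT SFs.

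Kitl (chromosome 10, 100015630 to 100100413, plus strand) was the member that passed the rule, and it was lowered in both comparisons with WT. Its normalized count was 54, 68 and 67 in WT, 56, 19 and 12 in hTNFtg and 40, 29 and 23 in infliximab-treated SFs. Replicates 2 and 3 of hTNFtg lay far under the WT range, while hTNFtg replicate 1 lay inside it, and all 3 infliximab values lay under the lowest WT value. That library held 9 Kitl reads, for which the exact Poisson interval runs from 25.6 to 106 normalized counts. The other hTNFtg libraries held 22 reads each and the WT libraries 56, 77 and 101. Means were 63.0 ± 7.81 (SD, n = 3) in WT, 29.0 ± 23.6 (SD, n = 3) in hTNFtg and 30.7 ± 8.62 (SD, n = 3) with infliximab.

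In hTNFtg versus WT SFs Kitl fell by 1.37 on the log2 scale, with a standard error of 0.54 (limma, adjusted p = 0.515). The call was lost without WT replicate 1 (log2 difference -1.48), WT replicate 2 (-1.32), WT replicate 3 (-1.33) or hTNFtg replicate 2 (-1.23). In each of these fits the unadjusted P was above 0.05. The call was also lost without hTNFtg replicate 3 (-0.92). Without hTNFtg replicate 1 it held, with a log2 difference of -1.98 (limma, adjusted p = 0.172). By edgeR on approximate reads the difference was -1.54 with an adjusted p of 0.0676. In infliximab-treated SFs versus WT, Kitl fell by 1.04 (standard error 0.29, limma adjusted p = 0.164; edgeR adjusted p = 0.0641). There the size slipped under 1 without WT replicate 2 (-0.98), WT replicate 3 (-0.995) or infliximab replicate 3 (-0.86), and with a pseudocount of 5 (-0.95). With all 9 libraries in 1 fit the call was lost because the unadjusted P was above 0.05 (adjusted p = 0.675 by limma). Treated and untreated hTNFtg SFs differed by 0.33 (limma, adjusted p = 0.888), with a 95% interval from -0.94 to 1.60, and by -0.13 without hTNFtg replicate 3 to 0.94 without hTNFtg replicate 1.

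The Kitl promoter is chr10:100015571-100015820 on the plus strand, 5′ to 3′, with matches to the loose NF-kB form and to the TATA box letters TATAAA in capitals.
Kitl: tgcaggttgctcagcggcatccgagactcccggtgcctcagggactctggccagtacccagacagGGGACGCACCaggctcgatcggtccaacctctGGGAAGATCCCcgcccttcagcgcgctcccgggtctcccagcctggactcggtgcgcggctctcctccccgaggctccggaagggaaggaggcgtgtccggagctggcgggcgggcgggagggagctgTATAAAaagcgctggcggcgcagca
The start site in RefSeq lies 191 bases inside the gene as the deposited table bounds it. As in Csf1, the window held a match to the narrower NF-kB form, here GGAAGATCCC from 152 to 143 bases before the start, and TATAAA lay from 25 to 20 bases before it. The narrower form occurred in 4.65% of the 32851 RefSeq promoter windows of this length, the loose form in 45.8% and TATAAA in 12.4%. RefSeq windows could be matched for 4 members, Csf1, Csf2, Kitl and Flt3l. The windows of Csf1, Kitl and Flt3l held neither TGANTCA, the AP-1 letters (6.75% of all windows), nor the CK-1 element of colony-stimulating factor genes (0.0365%), and that of Flt3l held the loose form once. For Csf2 the RefSeq start lies 232 bases upstream of the 5′ end in the deposited table. Its window, which held none of the motifs, therefore does not cover the bases just before that end, and these were not searched.

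Kit, the gene of the KITL receptor, was at 0 in all 9 libraries. In hTNFtg replicate 1, 0 reads allow up to 23.0 normalized counts by the exact Poisson 95% interval. Kit is one of 5 mast cell markers, of which 3 were at 0 throughout and whose sum was at most 1. A chondrocyte list (Acan, Sox9, Col2a1, Matn4 and Comp) had lower sums in both hTNFtg groups, at 6395 to 9486 in WT, 548 to 1216 in hTNFtg and 907 to 2553 in treated SFs. In each hTNFtg group 4 of the 5 were lower in every library than in every WT library, beside 5.8% of all genes for untreated and 7.07% for treated SFs, and most of the sum was Comp and Sox9. Col2a1 overlapped, at 60, 51 and 94 in WT, 75, 88 and 37 in hTNFtg and 55, 133 and 49 in treated SFs. The sum was lowest, at 548, in hTNFtg replicate 1, the hTNFtg library with the highest Kitl value, and the part of such cells in the Kitl values was not tested. Among 13600 genes with a mean of at least 10, the profiles nearest to that of Kitl over the 9 libraries were those of Thbs4, a matrix thrombospondin, Cxcl12, a chemokine of stromal cells, and Mir1892. Their root mean square differences of centered log2 values from Kitl were 0.213, 0.266 and 0.274, against a median of 0.949 over genes. They were picked as the nearest, so a place under the median was fixed in advance and tests no link to Kitl. Thbs4 stood at 1871, 2196 and 2010 in WT, 2080, 670 and 599 in hTNFtg and 1104, 951 and 924 with infliximab, so it shared the WT-like value of hTNFtg replicate 1. The row of Mir1892, a microRNA gene, lies inside Sptssa on the same strand and at much the same counts (73 to 342 against 76 to 346 for Sptssa).

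**Figure D3:**
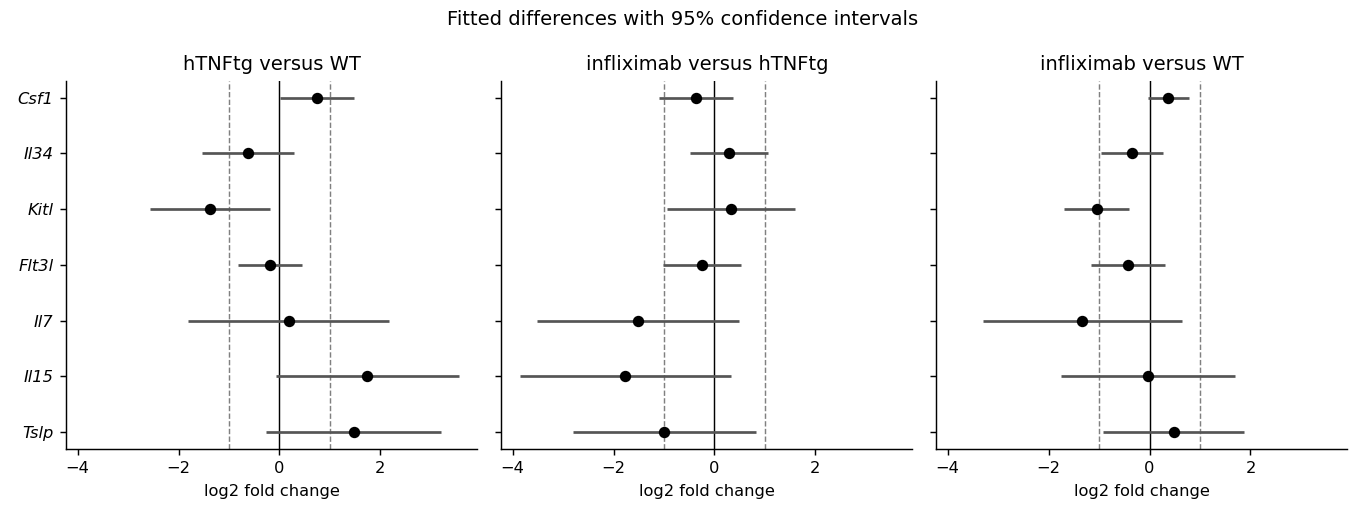
Log2 fold changes (dots) with 95% confidence intervals from limma for 7 cytokine genes in the 3 comparisons; dashed lines mark a log2 fold change of 1 in either direction. Kitl lies at -1.37 in hTNFtg versus WT and at -1.04 in infliximab versus WT with intervals that leave out 0, as does that of Csf1 in hTNFtg versus WT (from 0.0034), while all intervals of infliximab versus hTNFtg include 0.

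Flt3l was deposited as 2 rows that do not measure the same thing. The row ENSMUSG00000110206 (chromosome 7, 45129788 to 45136432, minus strand) is Flt3l in GENCODE M21, and its 5′ end is the RefSeq start site. The row ENSMUSG00000089989 (45125922 to 45136231) is named Gm45713 in GENCODE M21. It runs on through Rpl13a, the gene of a ribosomal protein, with which it shares 2840 bases on the same strand. Its counts were 2335, 2251 and 4099 in WT, 2585, 3567 and 2154 in hTNFtg and 2057, 2299 and 1121 with infliximab. These came to 89.6% to 98.6% of the Rpl13a count of the same library, and to 11.8 to 22.6 times the other Flt3l row. The small nucleolar RNA Snord35a, whose 90 bases lie within the shared part, also stood at 1136 to 4219. The high row is therefore given separately from Flt3l.

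Flt3l itself, from the row without Rpl13a, stood at 143, 190 and 181 in WT, 149, 173 and 130 in hTNFtg and 151, 184 and 72 in infliximab-treated SFs. The groups overlapped throughout. The lowest value was that of infliximab replicate 3, the library with the hepatocyte transcripts, in which Rpl13a (1144) was at its lowest as well. The differences were -0.18 for hTNFtg versus WT (limma, adjusted p = 0.810), -0.25 for infliximab versus hTNFtg (adjusted p = 0.858) and -0.43 for infliximab versus WT (adjusted p = 0.646). With 1 library left out the first ran from -0.31 to -0.08. Without infliximab replicate 3 the middle one was 0.15 and the last -0.03, and without infliximab replicate 2 they were -0.52 and -0.70. Flt3, the receptor, was at 0 to 3 in all libraries.

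**Figure D4:**
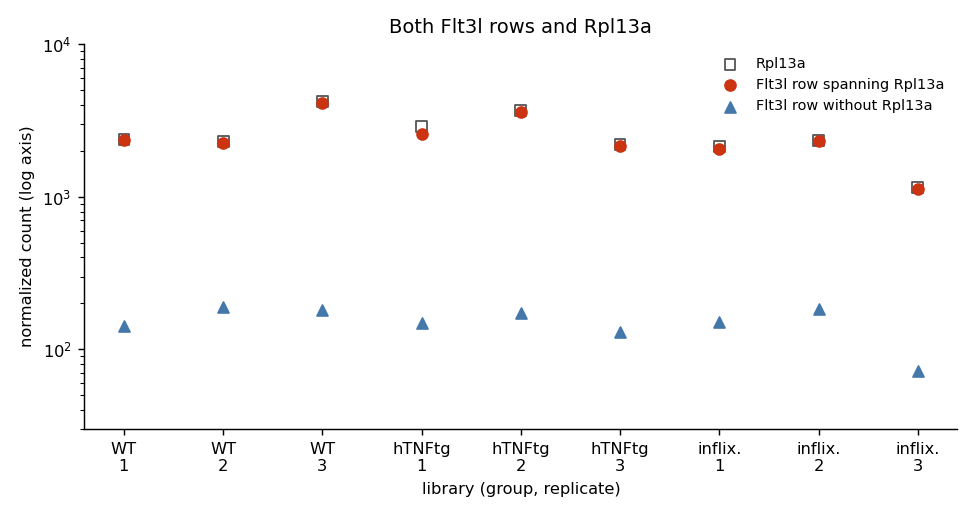
Normalized counts (log axis) of Rpl13a (squares) and of the 2 rows named Flt3l in each of the 9 libraries. The row that spans Rpl13a (circles) lies on the squares at 1121 to 4099, and the row without it (triangles) lies at 72 to 190.

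The granulocyte factors were at or near the limit of detection. Csf2 (chromosome 11, 54247271 to 54249667, minus strand) was at 0 in every library of every group. By the exact Poisson 95% interval, this allows up to 23.0 normalized counts in hTNFtg replicate 1 and up to 4.08 in the others. Csf3 (chromosome 11, 98701263 to 98703629, plus strand) was at 2, 3 and 0 in WT, 0, 0 and 1 in hTNFtg and 2, 1 and 1 with infliximab, at most 3 reads in any library, so that no fold change is given. Csf3 did not pass the rule in any of the 3 comparisons, although with array quality weights it did in hTNFtg versus WT and in infliximab versus hTNFtg, on these same few reads.

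Among the receptors of these factors, Csf2rb, the signaling chain shared by the GM-CSF, IL3 and IL5 receptors, rose in hTNFtg SFs, at 37, 20 and 26 against 0, 7 and 0 in WT (log2 difference 3.8, standard error 0.96, limma adjusted p = 0.155; edgeR adjusted p = 0.00087). It fell with infliximab, to 4, 5 and 11, by 1.97 on the log2 scale (limma adjusted p = 0.803; edgeR adjusted p = 0.398). Both calls held with each library left out in turn. The second receptor chain, Csf2ra, was at 25, 50 and 49 in WT, 112, 90 and 46 in hTNFtg and 95, 55 and 59 in treated SFs, which overlapped between hTNFtg and WT (log2 difference 0.96, adjusted p = 0.674). It was 0.64 without WT replicate 1 and passed the rule without hTNFtg replicate 3 (1.33). Csf2rb2, a near copy of Csf2rb with which it could share reads, was at 0 to 25, and Csf3r, also in the neutrophil list, at 0 to 12. The 37 normalized counts of Csf2rb in hTNFtg replicate 1 came from 6 reads. The macrophage marker sum was higher in hTNFtg than in WT SFs as well, and with infliximab its range overlapped that of untreated hTNFtg SFs (2035 to 4141 against 3124 to 6438). Lyz2 was the largest part of that sum in untreated hTNFtg SFs (5356, 2284 and 2356). Of the 11 macrophage markers 1, Itgam, was lower in every treated than in every untreated hTNFtg library, beside 3.44% of all genes. It was at 41, 29 and 38 against 143, 54 and 94. The part of such cells was not tested.

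Of the lymphoid cytokines, Il15 (chromosome 8, 82331632 to 82403222, minus strand) was at 3, 1 and 3 in WT, 6, 9 and 16 in hTNFtg and 4, 0 and 5 in infliximab-treated SFs. The untreated hTNFtg libraries were above all others, but on few reads, namely 3, 1 and 5 in WT, 1, 11 and 30 in hTNFtg and 4, 0 and 7 in treated SFs. The value of hTNFtg replicate 1 is thus a single read. The log2 difference from WT was 1.74 with a standard error of 0.83 (limma, adjusted p = 0.678), past the size of the rule but not its P. Without hTNFtg replicate 1 it was 2.04 (limma, adjusted p = 0.271), and by edgeR 2.19 (adjusted p = 0.252), both past the rule. Infliximab-treated and untreated hTNFtg SFs differed by -1.77 (limma, adjusted p = 0.803). By edgeR this was -1.78 (adjusted p = 0.764), which passes the rule. With 1 library left out it ran from -2.24 (without infliximab replicate 3) to -0.95 (without infliximab replicate 2, which held 0 Il15 reads), and passed in none of these 6 fits. With array quality weights it passed (-1.93, limma adjusted p = 0.188). These 2 comparisons share the untreated hTNFtg libraries.

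The chains that bind IL15 differed among themselves. Il2rg, the common gamma chain of the IL2, IL7 and IL15 receptors, rose in hTNFtg SFs to 174, 40 and 21 from 2, 1 and 3 in WT, by 4.23 on the log2 scale (standard error 0.84, limma adjusted p = 0.0603; edgeR adjusted p = 1.96e-10). With infliximab it stood at 35, 9 and 29, still raised against WT by 2.94 (limma, adjusted p = 0.0835). Both calls held with each library left out in turn. Il15ra, which presents IL15 to neighboring cells, was at 37, 26 and 30 in WT, 69, 51 and 14 in hTNFtg and 36, 35 and 20 with infliximab, without a difference past the rule. Il2rb, a signaling chain carried by lymphocytes, was at 2 to 5 in WT and 0 to 1 in hTNFtg SFs and was lowered by the rule (limma adjusted p = 0.493; edgeR adjusted p = 0.641) on 14 reads against 2. That call was lost without WT replicate 3 (log2 difference -1.62) or hTNFtg replicate 2 (-1.66). Like the macrophage marker sum, Il2rg was higher in every library of both hTNFtg groups than in WT, and the part of such cells in it was not tested. Markers of T and NK cells summed to 6 to 14 in every group, with Cd3d at 4 to 14. Of the same list, Cd3e and Cd8a were at 0 in all 9 libraries.

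Il7 (chromosome 3, 7569994 to 7613760, minus strand) was at 1, 7 and 11 in WT, 6, 7 and 4 in hTNFtg and 0, 5 and 1 in treated SFs, with overlapping groups. The difference of treated from untreated hTNFtg SFs was -1.51 (limma, adjusted p = 0.803), and it passed the rule without infliximab replicate 2 (-2.21, adjusted p = 0.914), whereas it was -0.92 without infliximab replicate 1 (adjusted p = 0.889). With array quality weights it also passed (-1.60, limma adjusted p = 0.292). The antisense gene Gm16685 overlaps Il7 over 1056 bases at 0 to 15 normalized counts, so reads of the 2 genes may not be told apart. Il7r was at 0 to 3 throughout.

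Tslp (chromosome 18, 32815383 to 32819799, plus strand) was at 2, 4 and 3 in WT, 12, 13 and 6 in hTNFtg and 2, 8 and 5 in treated SFs. The hTNFtg values were all above the WT values, on 2, 15 and 11 reads against 2, 5 and 5. The log2 difference was 1.47 with a standard error of 0.79 (limma, adjusted p = 0.726), and treated SFs overlapped both other groups. Crlf2, which pairs with the IL7 receptor chain to bind TSLP, fell in hTNFtg SFs to 143, 233 and 137 from 536, 325 and 250 in WT, by 1.08 on the log2 scale (standard error 0.36, limma adjusted p = 0.345; edgeR adjusted p = 0.100). With infliximab it rose to 316, 555 and 462, by 1.38 over untreated hTNFtg SFs (standard error 0.32, adjusted p = 0.803; edgeR adjusted p = 0.0219). The groups did not overlap in either comparison, and the values of treated SFs overlapped those of WT. The fall lost its call without WT replicate 1 (log2 difference -0.78), hTNFtg replicate 1 (-0.97) or hTNFtg replicate 3 (-0.94), while the rise kept it with each library left out (1.20 to 1.62).

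**Figure D5:**
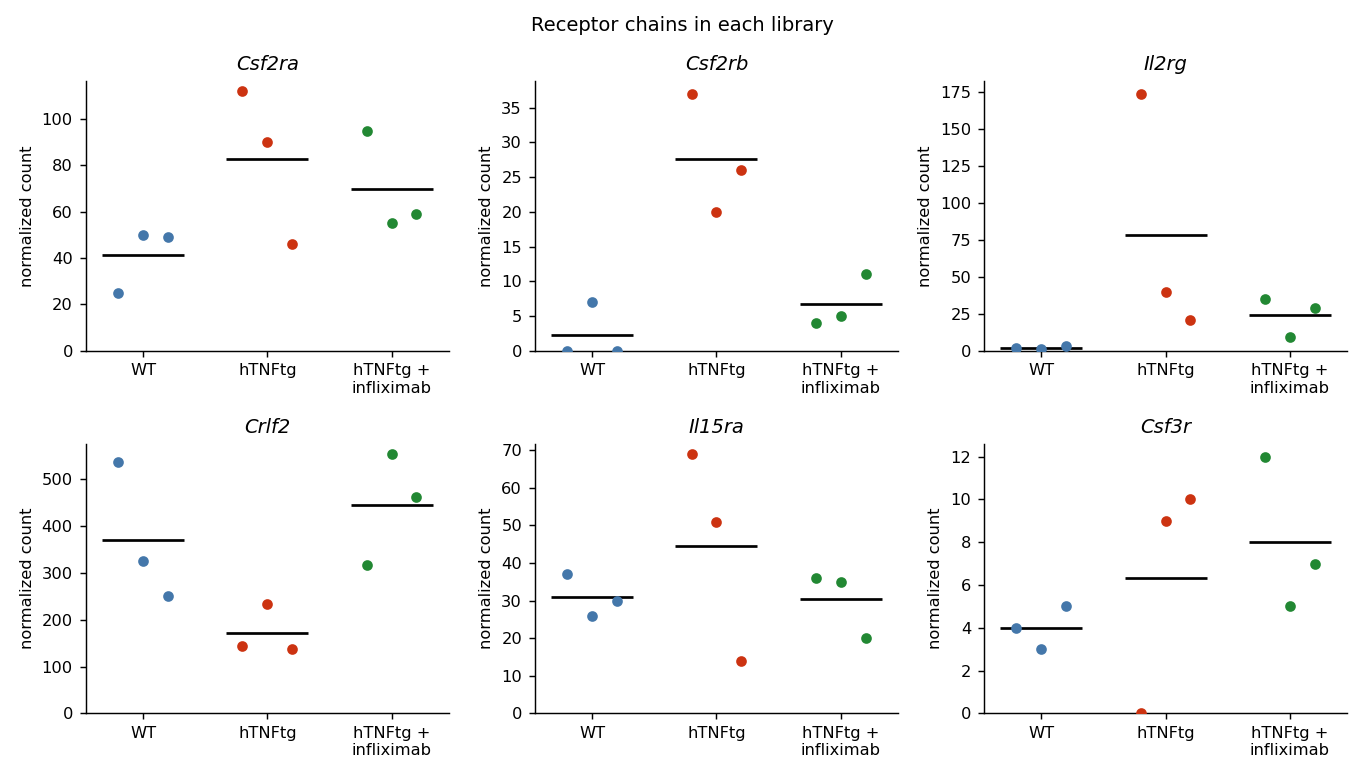
Normalized counts of 6 receptor chains in each library (dots) with group means (black lines), each panel on its own linear axis from 0. Csf2rb and Il2rg are higher in each hTNFtg library than in each WT library, and Crlf2 is lower in untreated hTNFtg SFs (137 to 233) than in WT (250 to 536) and infliximab-treated SFs (316 to 555).

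After infliximab, 0 of the 9 tested rows passed the rule against untreated hTNFtg SFs by limma, beside 2.43% of 28540 genes, and 0 had an unadjusted P under 0.05, beside 3.59%. At an adjusted p under 0.05 there were 0 of 9 rows and 0 of all genes (0.0%). By edgeR 1 row, Il15, passed, beside 4.31% of all genes. In 1 row, again Il15, every treated library was under every untreated one, beside 3.44% of all genes. The median log2 difference was -0.37 over the 9 rows, -0.31 without the Flt3l row over Rpl13a, and 0.00 over all genes. Against WT, 1 row (Kitl) was lowered, beside 2.95% of 28243 genes, and 0 were raised, beside 3.86%. At an unadjusted P under 0.05 stood 1 of 9, beside 11.9%, and at an adjusted p under 0.05 stood 0 of 9 by limma, beside 0.74%, and 0 of 9 by edgeR, beside 4.68%. Every treated library was above every WT library for 1 row (Csf1), beside 7.14% of genes, and under it for 1 (Kitl), beside 7.07%. The median was -0.34 over the 9 rows, -0.19 without the Flt3l row over Rpl13a, and 0.00 over all genes.

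Of the 14 receptor chains listed, 13 were tested. In hTNFtg versus WT SFs 2 were raised, beside 3.35% of all genes, and 2 lowered, beside 3.04%. In infliximab versus hTNFtg 1 was raised, beside 1.49%, and 1 lowered, beside 0.936%. In infliximab versus WT 1 was raised, beside 3.86%, and 0 were lowered, beside 2.95%. By limma 0 had an adjusted p under 0.05 in any of the 3 comparisons, with 5, 2 and 3 at an unadjusted P under 0.05, beside 7.72%, 3.59% and 11.9% of all genes. By edgeR an adjusted p under 0.05 was reached by 2 in hTNFtg versus WT (Csf2rb and Il2rg), beside 3.24% of all genes, by 1 in infliximab versus hTNFtg (Crlf2), beside 0.578%, and by 2 in infliximab versus WT (Il2rg and Sdc1), beside 4.68%. Their median log2 differences were 0.67, -0.19 and 0.75, and that over all genes was 0.00 in each comparison. The 0.67 was the value of Il7r, which held 0 reads in WT and 4 in hTNFtg SFs, all in hTNFtg replicate 2. It therefore does not measure a shift of the list. Of 12 genes of the JAK, STAT and SOCS families, through which most of these receptors signal, 0 passed the rule in hTNFtg versus WT SFs, beside 6.39% of all genes, 0 had an unadjusted P under 0.05, beside 7.72%, and the median was -0.13. In infliximab versus hTNFtg 1 was raised, beside 1.49% of all genes. This was Socs1, a feedback inhibitor of JAK kinases, at 38, 53 and 43 with infliximab against 19, 22 and 6 without, a log2 difference of 1.62 (standard error 0.56, limma adjusted p = 0.803; edgeR adjusted p = 0.235). It was lost without infliximab replicate 2 (1.49). WT SFs ranged from 17 to 98 for it.

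Of 15 other cytokines that act on blood cells, 11 were tested in hTNFtg versus WT SFs, where 1 was raised, beside 3.35% of all genes, and 2 lowered, beside 3.04%, with a median log2 difference of -0.24 against 0.00 over all genes. By limma 0 of the 11 had an adjusted p under 0.05, beside 0.48% of all genes, and by edgeR 2, Clec11a and Lif, beside 3.24%. In infliximab versus WT 2 of 11 were raised (Lif and Il11), beside 3.86%, and 0 lowered, beside 2.95%. By edgeR 4 had an adjusted p under 0.05 there, beside 4.68%, namely these 2, Clec11a and Cxcl12. Lif, a cytokine of the IL6 family, rose to 44, 27 and 14 from 2, 2 and 1 (limma, adjusted p = 0.111), against 2 reads in each WT library. It stood at 8, 18 and 8 with infliximab, which was raised against WT (adjusted p = 0.162). Clec11a, a stromal growth factor for progenitors, fell from 1379, 858 and 749 to 411, 292 and 76, by 2.19 on the log2 scale (standard error 0.54, adjusted p = 0.135; edgeR adjusted p = 8.95e-05), a call kept with each library left out. With infliximab it was at 655, 659 and 289, under every WT value (log2 difference -0.94, limma adjusted p = 0.295; edgeR adjusted p = 0.00765). That difference was -0.55 without infliximab replicate 3 and passed the rule without WT replicate 3, infliximab replicate 1 or infliximab replicate 2. Over untreated hTNFtg SFs it was raised by 1.25 (limma adjusted p = 0.803; edgeR adjusted p = 0.181), a call lost without hTNFtg replicate 3 (0.53), infliximab replicate 1 (1.06) or infliximab replicate 2 (1.05). Cxcl12, which holds hematopoietic progenitors in the marrow and was among the profiles nearest to Kitl, fell by 1.24 on the log2 scale, from 12054, 8959 and 11906 to 8128, 4033 and 2995 (standard error 0.52, limma adjusted p = 0.587; edgeR adjusted p = 0.154), a call lost without any one library but hTNFtg replicate 1 (-1.38 to -0.93 in the 5 fits that lost it). It stood at 7304, 4888 and 4995 with infliximab, under every WT value, a log2 difference of -0.95 that missed the size of the rule (limma, adjusted p = 0.163; edgeR adjusted p = 0.00478) but met it without WT replicate 2 (-1.09) or infliximab replicate 1 (-1.14). Il11, another cytokine of the IL6 family, was raised in infliximab-treated SFs against WT, at 29, 38 and 58 against 22, 8 and 15 (log2 difference 1.46, adjusted p = 0.199). Untreated hTNFtg SFs, at 12, 55 and 33, overlapped both. Their difference from WT was 0.97 (limma, adjusted p = 0.726). It was 0.50 without hTNFtg replicate 2, and 1.55 and past the rule without hTNFtg replicate 1, which held 2 Il11 reads. Treated and untreated hTNFtg SFs differed by 0.49 (limma, adjusted p = 0.803), or from -0.089 without hTNFtg replicate 1 to 0.96 without hTNFtg replicate 2.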

How the data were processed

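3′ mRNA libraries (QuantSeq, Ion Proton) of 9 SF cultures were analyzed, 3 per group. The authors mapped reads to mm10 with TopHat2 and then Bowtie2, counted them per gene with GenomicRanges and normalized them through metaseqR and DESeq. Versions, and whether counting used strand, are not given in the sources used here. The values deposited by the authors are a score per gene and library, normalized counts rounded to whole numbers, which are reads times 1 factor per library. For hTNFtg replicate 1, where a read is worth several units, whole reads can be read back from the deposited signal, whereas in the other libraries rounding leaves them approximate. The design was written for normalized counts in all libraries and was kept. Both tables hold the untreated hTNFtg libraries, which were used once. A further 24 per-sample columns (rpgm and log2 forms) and the authors' own p-values and fold changes per gene were not used.

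What 1 read was worth was estimated for each library from the spacing of its values, and division by it gave approximate reads (44556299 over 9 libraries). In simulated data 16 of 16 such steps were recovered within 1%. Groups were compared with limma 3.58.1 (lmFit, eBayes with trend) in R 4.3.3 on log2(normalized count + 1), leaving out genes at 0 in all 6 of them, with Benjamini-Hochberg adjustment over all of them. Data were simulated for hTNFtg versus WT with the same dispersion for all genes and 200 of 24739 genes changed 4-fold. The 200 were drawn from genes with a WT mean of at least 10. The study's rule found 96.5% of them together with 520 unchanged genes, and an adjusted p under 0.05 found 52.5% with 0 unchanged. These shares do not cover Csf3, Il7, Il15 and Tslp, whose WT means lie under 10. Tried as alternatives were other pseudocounts (5 and 0.5), only genes averaging 10 or more, median ratio rescaling, array quality weights, robust eBayes, a replicate block, all 9 libraries in 1 fit, edgeR 4.0.16 (quasi-likelihood, TMM) on approximate reads, and each library left out. Csf1 shares have exact binomial and reads exact Poisson 95% intervals. Overlaps and names were read from the tables and GENCODE M21.

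All 9 members are named, as are listed genes that are receptors of a member or pass the rule with a group mean of at least 10 normalized counts, and the 3 genes nearest in profile to a member that passed. Members and lists were chosen with earlier results of these data known.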

Additional observations from a re-analysis of the deposited data

How the results depend on the processing

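At the threshold on adjusted p, hTNFtg versus WT gave 137 genes, against 1004 with array quality weights, 461 with robust eBayes, 381 with all 9 libraries in 1 fit, 923 by edgeR and 0 with the replicate block. Leaving out 1 library gave 1 (without WT replicate 2) to 44. By the study's rule it gave 1823 genes (6.39% of those tested), and 1382 to 2407 with a library left out. It gave 1183 (8.68%) with a mean of at least 10 and 1352 (4.74%) with a pseudocount of 5. By edgeR it gave 2410 (8.45%) and with weights 3540 (12.4%). The cytokine rows past the rule went from 1 to 2 with a pseudocount of 5 and by edgeR (Kitl and Il15), to 4 with weights (Kitl, Il15, Tslp and Csf3), and to between 0 and 2 with a library left out. With weights 1 row, Kitl, also had an adjusted p under 0.05 (0.0214). Under the replicate block Kitl was lost (-1.37, adjusted p = 0.615) and Il15 passed (1.74, adjusted p = 0.615).

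For infliximab versus hTNFtg, 693 genes (2.43% of those tested) passed the rule, and 418 to 1411 with a library left out. There were 351 (1.23%) with a pseudocount of 5 and 314 (2.31%) with a mean of at least 10. Weights gave 2125 (7.45%), all 9 libraries 1048 (3.67%) and edgeR 1229 (4.31%). On adjusted p there were 0, against 65 with weights, 3 with robust eBayes, 3 with all 9 libraries and 165 by edgeR. Cytokine rows went from 0 to 3 with weights (Il15, Csf3 and Il7), 1 by edgeR, and 0 to 1 with a library left out.

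For infliximab versus WT, 1923 genes (6.81% of those tested) passed, and 1681 to 2516 with a library left out. There were 1057 (3.74%) with a pseudocount of 5 and 1056 (7.84%) with a mean of at least 10. On adjusted p there were 209, against 488 with a mean of at least 10, 378 with weights, 1182 with robust eBayes, 69 with all 9 libraries, 1323 by edgeR and 0 with the replicate block (0 to 1 with a library left out). The 1 cytokine row, Kitl, became 0 with a pseudocount of 5 (-0.95) and with all 9 libraries, where its unadjusted P was above 0.05. With a library left out it became 0 to 1. Robust eBayes put 1 row, the Flt3l row over Rpl13a, under an adjusted p of 0.05.

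Signs turned only in values that passed no rule. In hTNFtg versus WT the row over Rpl13a was at 0.31 with weights and Il7 at -0.31 by edgeR. In infliximab versus WT Il15 was at 0.076 with a pseudocount of 5 and 0.44 by edgeR. With a library left out the row over Rpl13a ranged from -0.24 to 0.24 and Il7 from -0.58 to 0.71 in hTNFtg versus WT. In infliximab versus hTNFtg Il34 ranged from -0.11 to 0.63, Kitl from -0.13 to 0.94 and Flt3l from -0.52 to 0.15, and in infliximab versus WT Il15 from -0.51 to 0.79. The causes were not tested. Of the other values per cytokine row, 343 kept their direction and side of the rule, 12 crossed into it and 11 out of it. A further 14, those of Csf3 in infliximab versus WT, had no direction to keep, because the difference was 0; they took both signs and 0 of them passed the rule.

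Replicate numbers were not taken to pair the libraries, because in each comparison at least 1 same-numbered pair failed to reach a correlation of 0.1 in its deviations. Across 13600 genes, which are not independent replicates, these were 0.29, -0.14 and 0.35 for hTNFtg and WT, 0.07, 0.20 and 0.27 for infliximab and hTNFtg, and 0.10, -0.15 and 0.01 for infliximab and WT. Infliximab replicates 2 and 3 correlated best with the hTNFtg library of their own number, and replicate 1 did not. With the replicate block that comparison gave 581 genes past the rule. Depth limits Csf2, Csf3, Il7, Il15 and Tslp most, and Kitl in hTNFtg replicate 1.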

Other observations

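Il2, named here after its values were seen, was at 50, 108 and 117 normalized counts in WT, 31, 58 and 210 in hTNFtg and 46, 61 and 90 in infliximab-treated SFs. It is known as a T cell cytokine. Of the T and NK cell markers, Cd3d was at 4 to 14, while Cd3e and Cd8a were at 0 in all 9 libraries. The gene Adad1 overlaps the 3′ end of Il2 by 1408 bases on the opposite strand and was itself at 0 in all 9 libraries.

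Il6, a cytokine that synovial fibroblasts are known to secrete, was at 18, 20 and 37 in WT, 12, 22 and 46 in hTNFtg and 24, 15 and 13 with infliximab, so that the groups overlapped. Angpt1, a stromal ligand of the receptor TEK, was at 68, 125 and 125 in WT, 81, 88 and 98 in hTNFtg and 70, 82 and 107 with infliximab, which also overlapped.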
